A study of Mus musculus with 4 samples.

Results

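The genes described here are 4 secreted ribonucleases of the RNase A superfamily on mouse chromosome 14, the chromosome that carries Mettl3: Ear2, Rnase2a, Rnase4 and Rnase6. They were chosen by name from a contrast between the genotypes that had already been seen, and they are 4 of the 23703 genes that the deposited tables list. RNA was measured in mature dendritic cells (maDC) from bone marrow, with 2 libraries from Mettl3KO mice and 2 from their Mettl3WT littermates. Mettl3KO mice carry floxed Mettl3 alleles (Mettl3 fl/fl) together with CD11c-Cre, which removes exons 2 to 4 in cells that use the CD11c promoter, and Mettl3WT mice carry the floxed alleles without Cre, so that an effect of Cre itself cannot be told apart from the loss of Mettl3. Marrow of animals 6 weeks old was grown in GM-CSF (10 ng/ml) and IL-4 (1 ng/ml), CD11c+ cells were taken with beads, and all 4 cultures then received LPS (100 ng/ml) for 24 h. Each table holds the 2 littermates of a pair, called pair 1 and pair 2.

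RNase A enzymes are small secreted proteins that cut single-stranded RNA and are held together by disulfide bonds. In the mouse, one branch of the family has multiplied into the eosinophil-associated RNases, the Ear genes, whose human relatives are the eosinophil-derived neurotoxin (RNASE2) and the eosinophil cationic protein (RNASE3). Both human proteins are stored in eosinophil granules, and mouse Ear transcripts are also known from macrophages. Ear2 and Rnase2a belong to this branch. Rnase4 is a separate branch that prefers uridine and shares a promoter with Ang (angiogenin). Rnase6 (RNase k6) is an antimicrobial RNase known from human monocytes and macrophages. Levels are given in RPKM, which scales read numbers by the length of the transcript and the size of the library, so that levels of different genes can be set side by side.

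In mm10, Ear2 lies on the plus strand of chromosome 14 from 44102654 to 44103531, which is 8191 kb from Mettl3 (52294841 to 52305214, minus strand). The other 3 genes lie nearer to Mettl3, at 1039 kb for Rnase2a (51255261 to 51256112, minus strand), 1163 kb for Rnase6 (51123913 to 51132187, plus strand) and 1189 kb for Rnase4 (51091077 to 51106151, plus strand). Rnase4 and Rnase6 are separated by 17.8 kb. In the GENCODE vM21 transcripts compared, the whole coding sequence of each gene sits in 1 exon, the 2nd of 2 exons for Ear2, Rnase2a and Rnase4 and the 3rd of 3 for Rnase6. The coding sequences, without their stop codons, span 468, 465, 444 and 459 bases for Ear2, Rnase2a, Rnase4 and Rnase6.

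The promoters of Ear2 and Rnase2a are shown because these genes followed almost the same course over the 4 libraries. The windows come from RefSeq on GRCm38.p6 (mm10), run from 250 bases before to 50 bases after the start of the gene, and are given 5′ to 3′ on the strand of the gene. Capitals mark runs of at least 10 bases that are identical in an alignment of the 2 windows. The Ear2 window is chr14:44102404-44102703 (plus strand) and the Rnase2a window is chr14:51256063-51256362 (minus strand).
Ear2: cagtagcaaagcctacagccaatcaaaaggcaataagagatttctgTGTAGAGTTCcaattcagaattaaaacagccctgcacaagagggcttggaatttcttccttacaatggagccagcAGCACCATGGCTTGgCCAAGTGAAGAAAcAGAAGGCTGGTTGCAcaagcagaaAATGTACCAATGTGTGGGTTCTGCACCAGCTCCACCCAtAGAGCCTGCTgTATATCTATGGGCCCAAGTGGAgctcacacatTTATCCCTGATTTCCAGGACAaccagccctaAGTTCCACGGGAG
Rnase2a: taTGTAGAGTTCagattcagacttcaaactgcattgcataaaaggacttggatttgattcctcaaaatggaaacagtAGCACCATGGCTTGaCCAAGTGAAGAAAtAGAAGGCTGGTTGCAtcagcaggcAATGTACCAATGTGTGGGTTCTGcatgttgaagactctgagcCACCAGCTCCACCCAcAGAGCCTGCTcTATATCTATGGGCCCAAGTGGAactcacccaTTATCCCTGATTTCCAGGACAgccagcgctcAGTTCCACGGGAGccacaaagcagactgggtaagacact
Of 255 aligned bases, 223 (87.5%) were identical, with a longest identical run of 23 bases and 156 bases in capitals in each window. Between the windows of different members otherwise, identity ran from 50.4% to 59.8% and no identical run exceeded 8 bases. Promoters of further Ear genes were not compared, so whether the likeness is particular to Ear2 and Rnase2a was not tested. The first window of Rnase4 is that of Ang, since both genes start at the same base.

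The promoter windows were also searched, on both strands, for short patterns. TTCNNNGAA (STAT5 type, in 8.30% of 32851 promoter windows), the STAT6 type, which has a spacer of 4 bases in place of 3 (6.95%), GAGGAAGT (PU.1 type, 3.20%) and TATAAA (13.6%) were in none of the windows of the 4 genes. TTNCNNAA (CEBP type, 40.7% of windows) was found in 1 place in the Ear2 window and in 2 places in that of Rnase2a, and CCAAT (37.4%) in 3 places for Ear2 and 1 for Rnase2a. In the 2 windows of Rnase4, TTNCNNAA was found in 1 and 2 places and CCAAT in 2 and 0. In the 3 windows of Rnase6, of which the last 2 overlap, TTNCNNAA was found in 0, 1 and 1 places and CCAAT in 2, 1 and 1. Where these patterns match, they match letters only.

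Likeness between family members also bears on what a value per gene can hold. The coding sequence of Ear2 matched that of Rnase2a at 373 of 465 aligned bases (80.2%), but that of Ear10 at 454 of 468 (97.0%) and that of Ear1 at 445 of 465 (95.7%), which are further Ear genes and are not analysed here. Of the 670 stretches of 50 bases in the Ear2 transcript, 252 (37.6%) also occur in transcripts of other family genes. For Rnase4 it was 56 of 1469 (3.81%), for Rnase2a 0 of 641 and for Rnase6 0 of 2403. How reads with several matches were treated is not given in the sources used here, so the Ear2 level is uncertain while that of Rnase2a is not touched by shared stretches of this length within the family. GGACT, the letters that the study names for m6A sites, is found 1 time in the Ear2 transcript and 2 times each in those of Rnase4 and Rnase6, but not in that of Rnase2a. Among protein-coding transcripts within 10% of the same length, 58.8%, 82.3%, 92.0% and 57.6% hold it for Ear2, Rnase4, Rnase6 and Rnase2a.

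Some features of the libraries need to be known before the values. The deposited RPKM values fit 31240000 to 35580000 reads per library. Mettl3 itself, the m6A methyltransferase, had 4.59 RPKM in Mettl3KO and 5.31 RPKM in Mettl3WT of pair 1, and 4.39 RPKM in Mettl3KO and 5.10 RPKM in Mettl3WT of pair 2, and its other exons are still counted in a value per gene. In pair 1 the libraries differed in sex-linked transcripts, with 37.8 and 0.0502 RPKM of Xist and 0.0243 and 29.1 RPKM of Ddx3y in Mettl3KO and Mettl3WT. Neither Xist nor Ddx3y is listed for pair 2, whose table lists only genes above 1 RPKM in both libraries. S100a9, a neutrophil and monocyte gene, had 2843 and 1237 RPKM in Mettl3KO and Mettl3WT of pair 1, but 2.57 and 1844 RPKM in those of pair 2, so for this gene the Mettl3KO library of pair 2 stands apart. Whether both tables were normalized together is not given in the sources used here, and levels set across the pairs are descriptions. The genotypes are therefore compared within a pair, but in pair 1 an effect of genotype cannot be told apart from an effect of sex. Whether the sexes differed in pair 2 was not tested, but the absence of both Xist and Ddx3y there is what such a difference would leave. In pair 2, too, genotype and sex may therefore be confounded.

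The Ear-type genes were higher in Mettl3KO than in Mettl3WT maDC of both pairs. Rnase2a had 8.75 RPKM in Mettl3KO and 3.94 RPKM in Mettl3WT of pair 1, and 143.9 RPKM in Mettl3KO and 23.7 RPKM in Mettl3WT of pair 2. It was thus 2.22-fold higher in Mettl3KO in pair 1 and 6.06-fold higher in pair 2. Ear2 had 4.32 RPKM in Mettl3KO and 1.81 RPKM in Mettl3WT of pair 1, and 63.3 RPKM in Mettl3KO and 10.0 RPKM in Mettl3WT of pair 2, which makes it 2.40-fold and 6.32-fold higher. In each gene the Mettl3KO library exceeded its littermate, but the Mettl3WT library of pair 2 lay above the Mettl3KO library of pair 1, so the genotypes overlap when all 4 libraries are set side by side. These values had led to the choice of the genes, so they are given as a description, with no test.

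**Figure D1:**
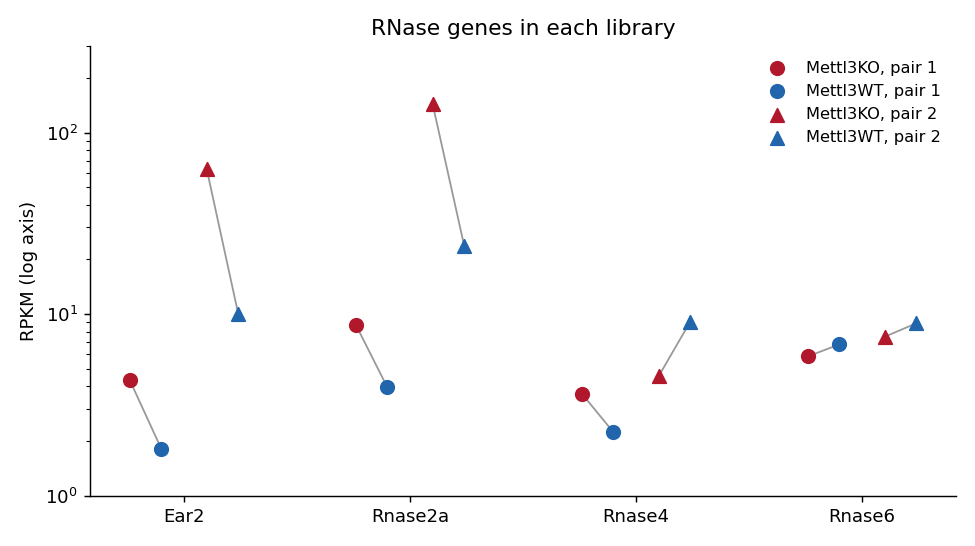
RPKM (log axis) of Ear2, Rnase2a, Rnase4 and Rnase6 in each of the 4 libraries. Red marks Mettl3KO and blue Mettl3WT, circles pair 1 and triangles pair 2, and a grey line joins the littermates. Ear2 and Rnase2a stand higher in Mettl3KO in both pairs and highest, at 63.3 and 143.9 RPKM, in Mettl3KO of pair 2.

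On the log2(RPKM + 1) scale, which understates the change of low genes, Rnase2a differed by 0.98 in pair 1 and 2.55 in pair 2 (mean 1.76 ± 1.11, SD, n = 2 pairs). For Ear2 the differences were 0.92 and 2.54 (mean 1.73 ± 1.15, SD, n = 2 pairs). The SD is large since the difference in pair 2 was so much greater than that in pair 1. The Rnase2a value rested on 205 reads in Mettl3KO and 97 in Mettl3WT of pair 1, and on 3106 and 535 reads in those of pair 2, with 95% counting intervals of the ratio from 1.73 to 2.85 and from 5.53 to 6.65. Ear2 had 105 and 46 reads in Mettl3KO and Mettl3WT of pair 1 and 1416 and 234 reads in those of pair 2, with intervals from 1.68 to 3.46 and from 5.50 to 7.28. These intervals describe the reads of 1 library against 1 and, as the genes were picked for this contrast, are no test of it. On fits over both tables without the Mettl3KO library of pair 2, the log2 difference was -0.18 for Rnase2a and -0.062 for Ear2, and without the Mettl3KO library of pair 1 it was 3.71 and 3.53. Intervals cover counting error only (exact binomial), and they are too narrow if the mates of a fragment were counted separately.

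Ear2 and Rnase2a kept nearly the same ratio to each other while their levels moved over a wide range. Rnase2a stood 2.02-fold and 2.18-fold above Ear2 in Mettl3KO and Mettl3WT of pair 1, and 2.27-fold and 2.37-fold above it in those of pair 2. The highest library exceeded the lowest by 36.5-fold for Rnase2a and by 35.1-fold for Ear2. Between the pairs, the Mettl3KO level of pair 2 was 16.4-fold that of pair 1 for Rnase2a and 14.6-fold for Ear2, and the Mettl3WT level was 6.02-fold and 5.55-fold. The Mettl3KO libraries thus differed more from each other than the littermates of either pair did, and the Mettl3WT libraries by nearly as much as the littermates of pair 2. Among the genes tested, Rnase2a lay above 46.9% and 23.2% in Mettl3KO and Mettl3WT of pair 1, but above 95.4% and 74.7% in those of pair 2.

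Rnase4 differed in opposite directions in the pairs. It had 3.65 RPKM in Mettl3KO and 2.24 RPKM in Mettl3WT of pair 1, but 4.54 RPKM in Mettl3KO and 9.08 RPKM in Mettl3WT of pair 2. The Mettl3KO level was 163.0% of the Mettl3WT level in pair 1 and 49.99% of it in pair 2. The highest and the lowest level of Rnase4 were both in Mettl3WT, with both Mettl3KO libraries between them. The counting intervals of the ratio ran from 1.29 to 2.07 in pair 1 and from 0.423 to 0.589 in pair 2, on approximate read numbers (2 transcripts are annotated). The mean log2 difference was -0.17 ± 0.98 (SD, n = 2 pairs), smaller than its spread.

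Rnase6 was the steadiest of the 4 genes. It had 5.85 RPKM in Mettl3KO and 6.81 RPKM in Mettl3WT of pair 1, and 7.49 RPKM in Mettl3KO and 8.90 RPKM in Mettl3WT of pair 2. The Mettl3KO level was 85.8% and 84.2% of that in Mettl3WT, and 30.8% of all genes tested were lower in both pairs. The log2 differences were -0.19 and -0.22 (mean -0.21 ± 0.021, SD, n = 2 pairs), and the counting intervals of the ratio ran from 0.760 to 0.969 and from 0.753 to 0.942. Its range over all libraries was 1.52-fold, and the Mettl3KO library of pair 2 lay above the Mettl3WT library of pair 1.

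The make-up of the family therefore differed between libraries. The 4 genes summed to 22.6 RPKM in Mettl3KO and 14.8 RPKM in Mettl3WT of pair 1, and to 219.2 RPKM in Mettl3KO and 51.7 RPKM in Mettl3WT of pair 2. Ear2 and Rnase2a made up 57.9% and 38.9% of that sum in Mettl3KO and Mettl3WT of pair 1, and 94.5% and 65.3% in those of pair 2. In Mettl3KO of pair 1 the order was Rnase2a, Rnase6, Ear2, Rnase4, and in Mettl3WT of pair 1 it was Rnase6, Rnase2a, Rnase4, Ear2. In pair 2 Rnase2a and Ear2 led in both libraries, followed by Rnase6 and Rnase4 in Mettl3KO and by Rnase4 and Rnase6 in Mettl3WT, where Rnase6 stood at 0.980 times the level of Rnase4.

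To set these changes in context, the littermates were compared over the 11757 genes that averaged 1 RPKM or more. By limma with the pair as a block, 5 genes (0.0425%) had an adjusted p under 0.05 and 654 an unadjusted p under 0.05, and 0 of the 4 ribonuclease genes were among the 5. Without the Mettl3KO library of pair 1, in a fit across the tables with no pair block, limma called 118 genes, and Ear2 and Rnase2a were among them. On RPKM + 1, 86 genes (0.731%) were 1.5-fold or more higher in Mettl3KO of both pairs, among them 2 of the 4, Ear2 and Rnase2a, and 56 genes (0.476%) were lower by that factor, with 0 of the 4. As the genes were picked for this contrast, nothing is read from these counts. In pair 1, 71 genes had a larger log2 ratio than Rnase2a and 85 a larger one than Ear2, and in pair 2 it was 7 and 8. Over all genes tested, 19.1% were higher in Mettl3KO of both pairs, 30.8% were lower in both, as was Rnase6, and 50.1% differed in direction between the pairs, as did Rnase4. An unadjusted p under 0.05 was reached by 5.56% of all genes. The median gene had a log2 ratio of -0.02 in pair 1 and -0.08 in pair 2.

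**Figure D2:**
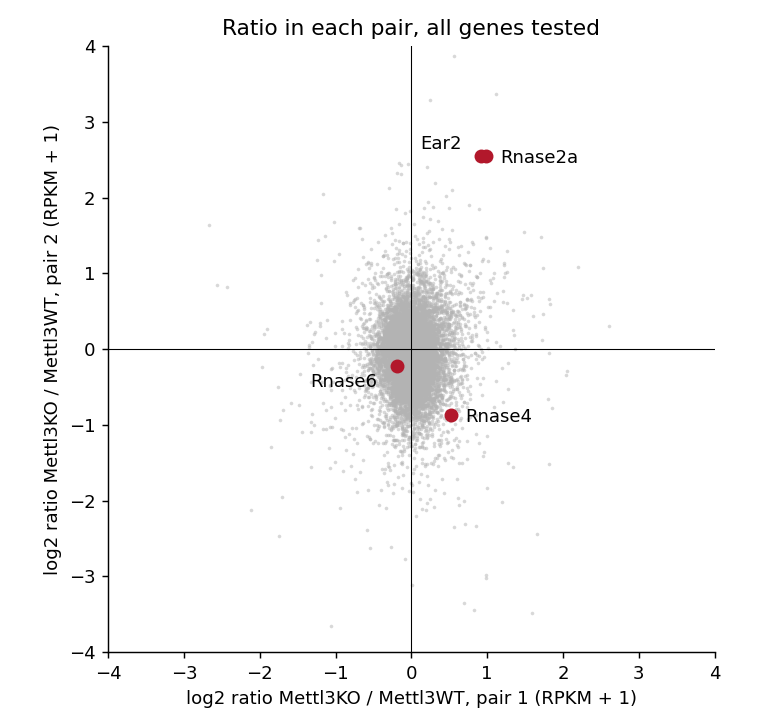
Log2 ratio of Mettl3KO over Mettl3WT on (RPKM + 1) in pair 1 (x axis) against pair 2 (y axis). Grey points are genes tested (11751 within the axes, 6 outside), and red points are the 4 ribonuclease genes. Ear2 and Rnase2a sit together at the upper right, Rnase6 near the centre and Rnase4 at the lower right.

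Of the rest of the RNase A superfamily list, which has 31 entries with the partner Rnh1, 3 more genes were analysed. Ang had 0.948 RPKM in Mettl3KO and 0.397 RPKM in Mettl3WT of pair 1, and it overlaps Rnase4, so their reads may be shared between them. Ear6, another Ear gene, had 0.496 RPKM in Mettl3KO and 0.355 RPKM in Mettl3WT of pair 1. Neither is analysed here for pair 2. Rnh1, the cytosolic inhibitor that binds RNase A enzymes very tightly, was far more abundant than any of the ribonucleases in pair 1, with 111.6 RPKM in Mettl3KO and 118.2 RPKM in Mettl3WT, and had 168.7 and 188.5 RPKM in those of pair 2. Its log2 difference was -0.12 (SE 0.23), which limma did not call (adjusted p = 0.994). In Mettl3KO of pair 2, and in no other library, Rnase2a came near the level of Rnh1. Over the 5 tested genes of the list the median log2 ratio was 0.52 in pair 1 and -0.16 in pair 2, and 4 of these 5 are the genes described here.

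The neighbourhood was examined next, since 3 of the 4 genes lie within 1189 kb of the deleted locus. Within 1 Mb of Mettl3 or 250 kb of one of the ribonuclease genes, 32 further genes are listed and 19 were tested. Of these 19, 4 were higher in Mettl3KO of both pairs, 5 lower and 10 opposite, 0 passed limma, and 2 had an unadjusted p under 0.05, beside 19.1% higher, 30.8% lower, 50.1% opposite and 5.56% with such a p over all genes tested. None of the 19 reached 1.5-fold one way in both pairs. Their median log2 ratio was 0.06 in pair 1 and -0.24 in pair 2. The closest listed genes on either side of Rnase2a were Rnase6, 123 kb away, and Gm6047, 570 kb away, which was listed at 0.187 RPKM in Mettl3KO and at 0 in Mettl3WT of pair 1. Ear2 stands apart from other listed genes, with Gm7324 387 kb before it (0.198 and 0.0515 RPKM in Mettl3KO and Mettl3WT of pair 1) and Gm16976 755 kb after it (0.0774 and 0.0553 RPKM). Tox4, which overlaps the end of Mettl3, had 21.0 and 21.6 RPKM in Mettl3KO and Mettl3WT of pair 1 and 12.8 and 16.5 RPKM in those of pair 2. Sall2, 5.96 kb on the other side, had 0.426 and 0.363 RPKM in pair 1.

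**Figure D3:**
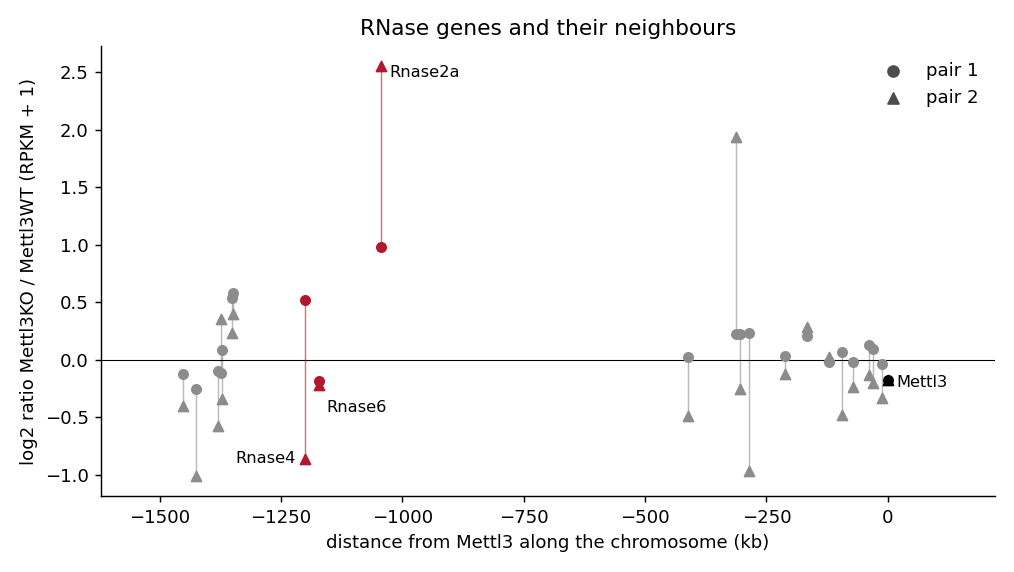
Log2 ratio of Mettl3KO over Mettl3WT on (RPKM + 1) against the distance of a gene's midpoint from that of Mettl3 in kb. Circles are pair 1 and triangles pair 2, joined by a line for each gene, with Rnase4, Rnase6 and Rnase2a in red, Mettl3 in black and the 19 tested neighbours in grey. Rnase2a lies above its neighbours in both pairs, while Ear2, 8191 kb away, falls outside the axis.

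Ear genes take their name from eosinophils, so the eosinophil markers were read beside them. The 9 eosinophil genes listed for pair 1 all had a higher RPKM in Mettl3KO, but for Prg3 and Gata1 the ratio was only 1.05. Equal read numbers would give about this ratio at library sizes of 33910000 reads in Mettl3KO and 35580000 in Mettl3WT. A higher level in pair 1 was not particular to eosinophil genes. Of the 15 neutrophil genes listed for pair 1, 14 were higher in Mettl3KO, as were 6 of the 21 dendritic cell genes. Over all genes tested the median log2 ratio in pair 1 was -0.02. The 9 eosinophil genes summed to 20.05 RPKM in Mettl3KO and 9.54 RPKM in Mettl3WT. Cebpe, a granulocyte factor, made up 54.5% and 48.6% of these sums, with 10.9 RPKM in Mettl3KO and 4.63 RPKM in Mettl3WT, and the other 8 genes summed to 9.11 and 4.91 RPKM. None of the 9 was listed at 0 in either library. Prg2, the granule major basic protein, had 5.14 and 2.55 RPKM in Mettl3KO and Mettl3WT. The defining markers Epx (eosinophil peroxidase, 0.0960 and 0.0332 RPKM), Il5ra (the IL-5 receptor, 0.481 and 0.160 RPKM), Siglecf (1.04 and 0.419 RPKM) and Ccr3 (the eotaxin receptor, 1.18 and 0.689 RPKM) were near or below 1 RPKM. In pair 2, where Ear2 and Rnase2a were most abundant, 1 of the 10 entries of the list was analysed. Cebpe had 8.07 RPKM in Mettl3KO and 14.3 RPKM in Mettl3WT, the opposite direction to Ear2 and Rnase2a. The other entries are not analysed here for pair 2. In a bulk sample, fewer cells of a type and less RNA per cell cannot be told apart.

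Markers of other myeloid cells also differed between the libraries. Summed over the 17 monocyte and macrophage genes listed in both tables, the level was 5890 and 4834 RPKM in Mettl3KO and Mettl3WT of pair 1, and 17581 and 12007 RPKM in those of pair 2, the same order of libraries as for Ear2 and Rnase2a. Of these 17 genes, 8 were higher in Mettl3KO of both pairs, 1 (Mertk) lower and 8 opposite, beside 19.1%, 30.8% and 50.1% of all genes tested. Among the opposite ones, Cd14 had 238.7 and 353.0 RPKM in Mettl3KO and Mettl3WT of pair 1, then 1047 and 622.2 RPKM in pair 2. By limma 0 of the 17 passed, with 5 at an unadjusted p under 0.05 (5.56% of all genes). Ccr2, the chemokine receptor of classical monocytes, had 3.93 and 1.57 RPKM in Mettl3KO and Mettl3WT of pair 1 and 9.90 and 5.45 RPKM in those of pair 2 (limma adjusted p = 0.286). Fn1 (fibronectin) had 3.03 and 2.59 RPKM in Mettl3KO and Mettl3WT of pair 1, then 20.05 and 4.77 RPKM in those of pair 2. The neutrophil sum went in opposite directions in the pairs. Its 7 genes, those listed in both tables, gave 7163 and 4263 RPKM in Mettl3KO and Mettl3WT of pair 1, against 3768 and 5846 RPKM in those of pair 2. All 15 neutrophil genes listed for pair 1 summed to 7993 and 4494 RPKM, 14 of them higher in Mettl3KO and 1 lower. Of those listed for pair 1 only, Ngp had 684.9 and 193.3 RPKM and Ltf 114.7 and 26.4 RPKM. Lcn2 was higher in Mettl3KO of both pairs, with 2319 and 1970 RPKM, then 3510 and 2687 RPKM. It was thus most of the sum in Mettl3KO of pair 2, where S100a8 had 142.7 RPKM, against 1129 RPKM in Mettl3WT. The 19 dendritic cell genes summed to 11528 and 13556 RPKM in Mettl3KO and Mettl3WT of pair 1 and to 8745 and 14276 RPKM in those of pair 2, so dendritic cell markers were abundant in every library. Of the 19, 12 were lower in Mettl3KO of both pairs, 0 higher and 7 opposite, beside 30.8%, 19.1% and 50.1% of all genes tested. In this list 0 passed limma, with 5 at an unadjusted p under 0.05 (5.56% of all genes). Among the 7 opposite genes, Itgax (CD11c) had 9.66 and 12.6 RPKM in Mettl3KO and Mettl3WT of pair 1, but 51.0 and 17.2 RPKM in those of pair 2. Kit and Gata2, the basophil and mast cell genes listed in both tables, summed to 18.7 and 23.7 RPKM in Mettl3KO and Mettl3WT of pair 1 and to 5.70 and 28.0 RPKM in those of pair 2. The part of these cells in the levels of Ear2 and Rnase2a was not tested.

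**Figure D4:**
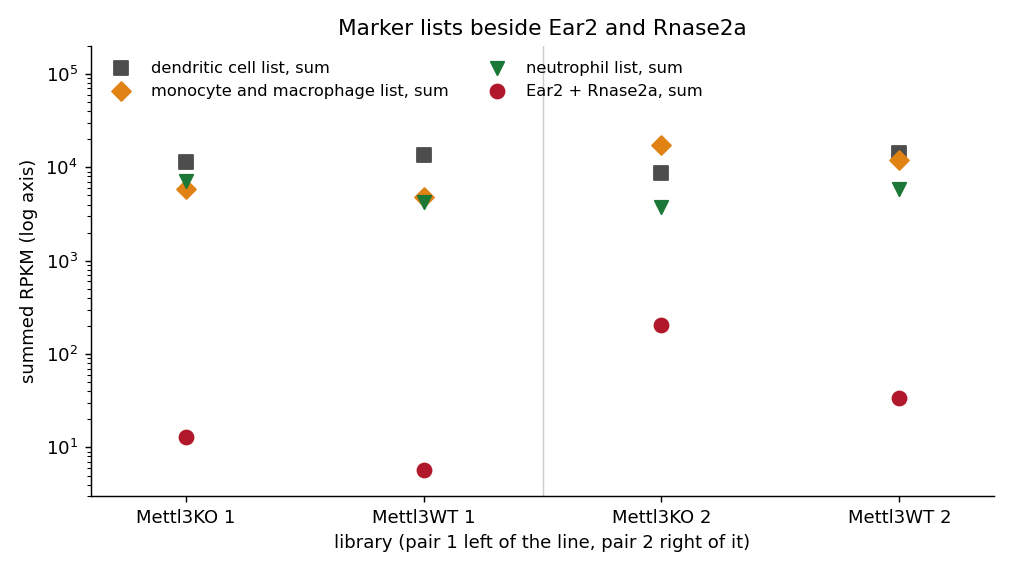
Summed RPKM (log axis) in each library of Ear2 and Rnase2a and of the marker lists for dendritic cells (19 genes), monocytes and macrophages (17 genes) and neutrophils (7 genes), over genes listed in both tables. The monocyte and macrophage sum is highest in Mettl3KO of pair 2 (17581 RPKM), as is that of Ear2 and Rnase2a (207.2 RPKM), while the dendritic cell sum is lowest there (8745 RPKM). Lyz2 makes up most of each monocyte and macrophage sum, and Lcn2 most of the neutrophil sum in Mettl3KO of pair 2.

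Genes whose pattern over the 4 libraries was most like that of each ribonuclease were taken by the Euclidean distance between centred log2(RPKM + 1) values, among 8458 genes with an SD of at least 0.2. For Ear2 the nearest gene was Rnase2a, at a distance of 0.33, and for Rnase2a it was Ear2. Next for Ear2 came TrnG, a mitochondrial tRNA (0.87), and Ccl9, a myeloid chemokine on chromosome 11 (1.04). Ccl9 had 47.4 and 19.1 RPKM in Mettl3KO and Mettl3WT of pair 1 and 240.7 and 98.0 RPKM in those of pair 2. For Rnase2a, Rmrp (the RNA of RNase MRP, 0.98) and TrnG (1.07) followed. Both are short RNAs, and Rmrp had 1.07 and 0.409 RPKM in Mettl3KO and Mettl3WT of pair 1 and 57.3 and 3.01 RPKM in those of pair 2. Ear2 and Rnase2a were thus much nearer to each other than to any other gene compared.

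The other ribonucleases had closer company elsewhere. Rnase4 lay nearest to Lbx2 (0.13), Phospho1 (0.17) and Mir7578 (0.19), which also differed in opposite directions in the pairs. Phospho1, a phosphatase known from bone mineralization, had 8.32 and 5.55 RPKM in Mettl3KO and Mettl3WT of pair 1 and 11.4 and 18.1 RPKM in those of pair 2. Rnase6 lay nearest to Cd151, a tetraspanin (0.041), to Glrx3, a glutaredoxin (0.044), and to an antisense gene known only by its identifier. Between the Ear-type genes and the others the distances ran from 3.04 (Ear2 and Rnase4) to 3.50 (Rnase2a and Rnase6), and 2438 genes were nearer to Ear2 than Rnase4 was. With only 4 libraries, many genes share a pattern, and the distances are descriptions.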

How the data were processed

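PolyA RNA of 4 maDC libraries was sequenced (NEBNext Ultra, HiSeq2000). Tools named in the submitters' processing notes are bcl2fastq, TopHat2 2.0.14 and Cuffnorm, with mm10 as the genome. For the annotation, the strandedness and multiply matching reads, the handling is not given in the sources used here. For each littermate pair the authors deposited a table of RPKM values per library, 23690 genes for pair 1 and 11835 for pair 2, whose table lists only genes above 1 RPKM in both libraries (lowest value 1.00005). Their fold change, p-value and q-value columns, from 1 library against 1, were not used.

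Tables were joined by gene and position (11822 genes in both). Values were taken as log2(RPKM + 1), and the 11757 genes averaging 1 RPKM or more were tested with limma 3.58.1 (R 4.3.3; intensity trend, pair as block, Benjamini-Hochberg adjustment, threshold 0.05). The fit was run beforehand on simulated data with less spread than these data have. That run checks the code and not how well the fit suits these data. The methods describe littermates sequenced as pairs, and deviations of same-numbered libraries correlated at 0.697. Library sizes were those at which low values of single-transcript genes became whole reads (within 0.1 reads, 100% of 122 to 397 genes).

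The 4 genes and the gene lists were chosen with earlier results of these data known. Named were the 4 genes, listed family members, defining markers, the nearest listed neighbours, and the 3 genes nearest in pattern to each. Of the defining markers only a part is printed, the rest standing in the counts and sums. Nothing shows that cultures of 1 mouse were repeated, so n is 2 pairs. Alternatives were no pair block, another pseudocount, other filters, centring of each pair, no trend, and leaving out libraries or pairs.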

Additional observations from a re-analysis of the deposited data

How the results depend on the processing

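The number of genes with an adjusted p under 0.05 depended on the settings, with 0 without the replicate block (the pair), 1 with a pseudocount of 0.1, 1 with each pair centred on its median, and 1 to 118 when 1 library was left out (in Mettl3KO, 118 without replicate 1 and 27 without replicate 2, and in Mettl3WT, 3 and 1). The log2 differences of Ear2 and Rnase2a moved by less than their spread over the pairs with the other pseudocount and with centring. Leaving out 1 library moved them from -0.062 to 3.53 for Ear2 and from -0.18 to 3.71 for Rnase2a. The lowest values came without Mettl3KO replicate 2 and the highest without Mettl3KO replicate 1, the fit in which both genes were among those called. These fits compare libraries across tables without the block, so the difference between the pairs enters them. For Ear2, without Mettl3WT replicate 1 the value was 0.75 and without Mettl3WT replicate 2 it was 2.72, and for Rnase2a these were 0.60 and 2.93. Rnase4 ran from -0.99 (without Mettl3WT replicate 1) to 0.65 (without Mettl3WT replicate 2). Rnase6, whose pairs differed by so little, had -0.23 with the pseudocount of 0.1, -0.16 with centring and -0.38 to -0.035 when a library or pair was left out. The median of the RNase A list ran from -0.16 without replicate 1 to 0.52 without replicate 2, and that of the neighbours from -0.24 to 0.06. The block leaves the mean difference of each gene as it is. The fit has 1 residual degree of freedom, and a fold change of a gene under 1 RPKM rests on few reads.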

Other observations

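Enzymes and receptors that handle RNA in endosomes and lysosomes, other than the RNase A family, were read as a further list. Of 10 tested genes 5 were higher in Mettl3KO of both pairs, 1 lower and 4 opposite, beside 19.1%, 30.8% and 50.1% of all genes tested, and 0 passed limma, with 0 at an unadjusted p under 0.05 (5.56% of all genes). Their median log2 ratio was 0.23 in pair 1 and 0.15 in pair 2. Rnaset2a, the lysosomal RNase T2, had 105.2 and 57.9 RPKM in Mettl3KO and Mettl3WT of pair 1 and 168.0 and 148.4 RPKM in those of pair 2, while its near copy Rnaset2b had 7.77 and 15.6 RPKM, then 14.3 and 10.8 RPKM. Pld3, an exonuclease of lysosomes, had 32.4 and 41.0 RPKM in Mettl3KO and Mettl3WT of pair 1 and 124.0 and 130.6 RPKM in those of pair 2. Its relative Pld4 had 61.7 and 50.8 RPKM in pair 1, then 134.5 and 147.1 RPKM. Tlr13, the mouse receptor for bacterial ribosomal RNA, had 29.9 and 35.9 RPKM in Mettl3KO and Mettl3WT of pair 1 and 40.2 and 36.7 RPKM in those of pair 2. Tlr7 and Tlr8, the receptors for single-stranded RNA, were named after their values were seen: Tlr7 had 18.4 and 15.5 RPKM in Mettl3KO and Mettl3WT of pair 1 and 21.0 and 14.3 RPKM in those of pair 2, and Tlr8 had 13.4 and 11.0 RPKM, then 15.3 and 12.1 RPKM.

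Of the 17 tested monocyte and macrophage genes, 3 were 1.5-fold or more higher in both pairs, Ccr2, Fcgr1 and Arg1, beside 0.731% of all genes tested. Arg1 (arginase, an IL-4 responsive gene, named after its values were seen) had 12.3 and 5.14 RPKM in Mettl3KO and Mettl3WT of pair 1 and 38.6 and 2.84 RPKM in those of pair 2, so unlike Ear2 and Rnase2a its Mettl3WT level was lower in pair 2 than in pair 1. Chil3 of the same list, also named after its values were seen, had 245.3 and 168.5 RPKM, then 1028 and 238.2 RPKM. Its Mettl3WT level was higher in pair 2, as for Ear2 and Rnase2a.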
